A study of Mus musculus with 12 samples.

Results

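Macrophages and the molecules with which they present antigen were followed through 33 genes in the thoracic aorta of mice whose smooth muscle expressed a dominant-negative PPARγ. A list of 36 macrophage, complement C1q and MHC class II genes was drawn up with earlier results of these data known, so it is not blind to them. Each gene was taken where an array row was annotated with it alone. If a gene had several such rows, only the brightest on average was used. That left 33 of the 19687 genes measured. Lyz2, H2-Eb1 and Ms4a7 were dropped because their rows are shared with a near relative or neighbour (Lyz1, H2-Eb2 and Ms4a14).

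The samples were thoracic aortas of 12 male C57BL/6 mice, 1 array per mouse and none pooled. In 7 mice a human PPARγ carrying the P467L mutation was expressed from the smooth muscle myosin heavy chain promoter, and the other 5 were nontransgenic littermates without the transgene. PPARγ is a ligand-activated nuclear receptor, and P467L is a dominant-negative mutant of it. The promoter directs the transgene to smooth muscle, so the leukocytes measured here are not the cells it was aimed at. Their age was not given in the sources used here. Values are log2 intensities of Affymetrix mouse exon arrays, so a difference of 1 is a doubling, and each result rests on the number of arrays rather than on a read depth. Array medians lay between 4.74 and 4.79. The row of Pparg itself had means of 6.81 ± 0.19 (SD, n = 5) and 6.82 ± 0.24 (SD, n = 7), and whether it sees the human transgene was not tested.

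Macrophages of the aortic wall live mainly in the adventitia. They take up debris and lipoproteins through scavenger receptors, bind antibody-coated particles through Fc receptors, secrete the C1q chains that start the classical complement pathway, and digest what they engulf in lysosomes. Peptides from digested protein are loaded onto MHC class II dimers, guided by the invariant chain Cd74, and shown to CD4+ T cells. In macrophages PPARγ itself is known to restrain inflammatory genes and to favour genes of lipid uptake, but that is the receptor of the macrophage and not of the muscle cell. In whole tissue, fewer cells of a type and less RNA per cell cannot be told apart.

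The promoters of 3 members are shown because they carry the letters by which macrophage and class II genes are best known. They were taken from RefSeq (build GRCm38.p6, 250 bases before to 50 after the start of the gene, 5′ to 3′ on the strand of the gene). The arrays were processed with mm9, so these positions belong to the RefSeq build alone. In H2-Aa the capitals mark TGACGTCA, the X2 part of the class II enhancer, at -74 to -67 from the start, and CTGATTGG, its Y box, at -51 to -44. In C1qb and C1qc they mark GAGGAA, the core bound by the myeloid factor PU.1, or its complement TTCCTC.
H2-Aa (chr17:34287774-34288073, minus strand): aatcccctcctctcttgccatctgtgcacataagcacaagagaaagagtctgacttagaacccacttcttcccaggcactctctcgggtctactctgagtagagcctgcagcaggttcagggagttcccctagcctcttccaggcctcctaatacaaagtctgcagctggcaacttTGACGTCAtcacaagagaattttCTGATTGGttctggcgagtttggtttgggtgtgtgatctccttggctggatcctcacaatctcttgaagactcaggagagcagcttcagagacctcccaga
C1qb (chr4:136886151-136886450, minus strand): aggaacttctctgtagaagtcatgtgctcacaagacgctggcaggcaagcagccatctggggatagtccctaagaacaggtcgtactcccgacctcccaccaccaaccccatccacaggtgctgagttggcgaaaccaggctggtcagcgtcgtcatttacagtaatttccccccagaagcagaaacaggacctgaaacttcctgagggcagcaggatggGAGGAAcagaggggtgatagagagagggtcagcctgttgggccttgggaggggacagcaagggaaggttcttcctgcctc
C1qc (chr4:136892865-136893164, minus strand): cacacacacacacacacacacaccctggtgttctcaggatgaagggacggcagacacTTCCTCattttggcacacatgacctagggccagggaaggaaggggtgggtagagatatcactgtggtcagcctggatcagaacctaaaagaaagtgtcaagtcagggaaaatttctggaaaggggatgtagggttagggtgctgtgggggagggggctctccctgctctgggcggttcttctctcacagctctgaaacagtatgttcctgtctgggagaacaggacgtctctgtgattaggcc
Promoters of 24 members matched by symbol, 29 in all. On either strand GAGGAA stood in 17 of the 29, against 28.3% of the 32851 promoters in the table. CTGATTGG stood in 1 of the 29 (H2-Aa) against 4.10%, and TGACGTCA in the same promoter alone against 1.79%. The form of a PPAR response element made of AGGTCA repeated after 1 base of any kind was in none of the 29, against 0.0396% of all promoters. As only 13 of the 32851 carry it, 29 promoters are too few to read anything from its absence. These matches are descriptions of letters in a window.

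Macrophages were detected in the aortas of both genotypes. The level below which a row was read as background, 5.18, is the 95th percentile of the means of 918 receptor genes for odours and pheromones. The means of both genotypes exceeded it for 27 of the 33 members, and 23 members exceeded it on all 12 arrays. The defining macrophage genes Csf1r, Cd68, Mrc1 and Cd163 were among these 23. Cd52, Coro1a and Cd86 had at least 1 mean below it, and Clec4n, Marco and Mpeg1 lay below it on every array. Mpeg1, a pore-forming protein of phagocytes, ranged from 3.02 to 3.51. Of 11 lymphocyte markers, 0 lay above background in nontransgenic aorta. Among them Cd79a had a P467L mean of 5.26, above background, and 6 of its 12 values exceeded that level.

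None of the 33 members differed between genotypes past the threshold. At a limma adjusted p under 0.05 over all 19687 genes, 0 of the 33 members passed, while 48 genes (0.244%) passed in all. At an unadjusted p under 0.05, 2 of the 33 (6.06%) differed, Gpnmb lower and Lgals3 higher, against 4.82% of all genes. The same 0 and 2 were obtained with an unmoderated linear model. Differences ran from -0.28 to 0.28 on the log2 scale. For the 27 members with both means above background, every 95% interval lay within 1 log2 unit of 0, and 20 lay within 0.5. Intervals that include 0 do not show that a difference is 0. For the other 6 members, at or near background, the intervals set no such limit on the gene.

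**Figure D1:**
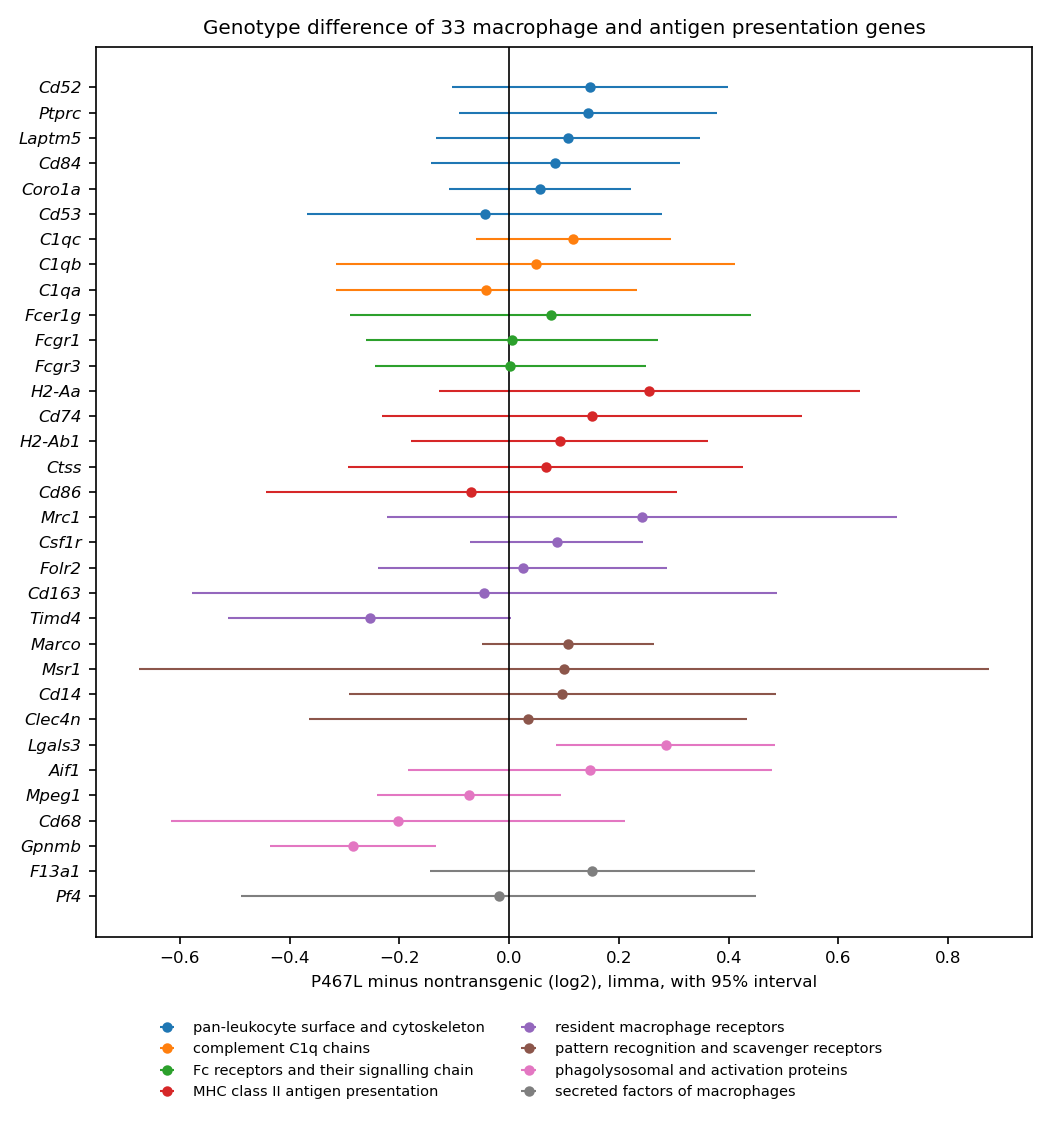
P467L minus nontransgenic difference of each of the 33 genes on the log2 scale (x axis) with its 95% interval from limma, 5 nontransgenic against 7 P467L arrays, coloured by role. The intervals of Gpnmb and Lgals3 alone leave out 0 before adjustment, and points run from -0.28 to 0.28.

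The members lay slightly to the higher side in P467L. Of the 33, 24 (72.7%) had a higher mean in P467L and 9 a lower one, where 50.5% of all genes were higher. The median of the members' differences was 0.08, against 0.00 over all genes. A lean to the higher side was not particular to this list. Higher means were found for 9 of 11 lymphocyte markers, 9 of 11 neutrophil markers and 8 of 9 monocyte genes. They were found for 20 of 37 other macrophage genes, 4 of 11 adipocyte markers and 2 of 7 mast cell markers. Among the 10637 genes with a mean above background, 46.1% were higher and the median was -0.01. These members share cells and so are not independent. The median is smaller than the spread of the members' mean level between single arrays of a genotype (SD 0.15). That spread is wider than the error of a difference between 2 group means, so it is a loose yardstick. The median was 0.02 without nontransgenic replicate 1, 0.05 without nontransgenic replicate 2 and 0.03 without P467L replicate 4. It was 0.13 without nontransgenic replicate 3, and ranged from 0.02 to 0.30 over the alternatives tried.

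Gpnmb and Lgals3, proteins of activated and lipid-laden macrophages, stood at opposite ends. Gpnmb encodes a transmembrane glycoprotein of lysosome-rich phagocytes and of other cells. Its levels were 6.16, 6.08, 6.16, 6.25 and 6.13 in nontransgenic replicates 1 to 5, and in P467L the lowest was 5.74, the median 5.85 and the highest 6.07. The genotypes did not overlap, which was so for 1 of the 33 members and for 0.726% of all genes. The means of 6.16 ± 0.06 (SD, n = 5) and 5.87 ± 0.11 (SD, n = 7) differed by -0.28 ± 0.07 (SE), with a limma adjusted p of 0.205. Gpnmb thus did not pass over all genes, and its adjusted p was between 0.114 and 1.00 over the alternatives.

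Lgals3 encodes galectin-3, a carbohydrate-binding protein secreted by macrophages and also made by other cells. It was at 5.75, 5.88, 5.74, 5.60 and 5.64 in nontransgenic replicates 1 to 5, and between 5.81 and 6.29 with a median of 5.96 in P467L. Only nontransgenic replicate 2 reached into the P467L range. The difference of 0.28 ± 0.09 (SE) had a limma adjusted p of 0.582. The remaining phagolysosomal and activation genes spread on both sides. Cd68, the lysosomal glycoprotein used as a pan-macrophage stain, was at 7.19, 6.90, 7.56, 7.01 and 7.25 in nontransgenic aortas and between 6.44 and 7.60 with a median of 6.95 in P467L. The P467L range enclosed the nontransgenic one, and the difference was -0.20 ± 0.19 (SE). Aif1, the actin-binding protein also called IBA1, differed by 0.15 ± 0.15 (SE) and Mpeg1 by -0.07 ± 0.08.

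MHC class II genes varied between mice of the same genotype, as other members did. The SD of H2-Aa was 0.33 in nontransgenic and 0.34 in P467L, and that of Msr1, scavenger receptor A, was 0.73 and 0.68. H2-Aa, the α chain of the I-A dimer, was at 5.68, 6.11, 6.31, 6.50 and 6.43 in nontransgenic replicates 1 to 5. In P467L it lay between 6.02 and 6.83 with a median of 6.44. Replicate 1 was the lowest nontransgenic array and replicate 1 the highest P467L array, and the groups otherwise overlapped. The difference was 0.26 ± 0.18 (SE; limma adjusted p = 0.999).

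H2-Ab1, the β chain that pairs with H2-Aa, followed the same arrays. Its nontransgenic values were 6.12, 6.33, 6.36, 6.70 and 6.54, and the P467L values lay between 6.19 and 6.78 with a median of 6.48. The highest P467L array was again replicate 1, and the difference was 0.09 ± 0.13 (SE). Cd74, the invariant chain that guides class II dimers to the endosome, was at 5.58, 5.96, 6.19, 5.94 and 6.18, and between 5.61 and 6.74 with a median of 6.12 in P467L. It too was lowest in nontransgenic replicate 1 and highest in P467L replicate 1, with a difference of 0.15 ± 0.18 (SE). In all 3 of these genes P467L replicate 7 was the lowest of its group.

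The protease and the costimulatory ligand of the list were not highest in P467L replicate 1. Ctss, cathepsin S, cleaves the invariant chain so that peptide can bind. Its values were 7.60, 7.92, 8.44, 8.54 and 8.10 in nontransgenic aortas, and between 7.90 and 8.56 with a median of 8.15 in P467L, a difference of 0.07 ± 0.17 (SE). Cd86, a ligand of the T cell receptor CD28, was at 4.36, 4.70, 5.19, 5.00 and 4.70, and between 4.35 and 5.33 with a median of 4.74 in P467L. Only 2 of its 12 values lay above background. Its difference was -0.07 ± 0.17 (SE), and a further row of the gene differed by -0.17 ± 0.20.

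The 3 complement C1q chains, which assemble into 1 protein and lie side by side on chromosome 4, did not separate the genotypes. C1qa was at 5.25, 5.56, 5.75, 5.41 and 5.04 in nontransgenic replicates 1 to 5 and between 5.04 and 5.68 with a median of 5.36 in P467L. C1qb was at 5.49, 5.96, 6.50, 5.76 and 6.04, and between 5.51 and 6.26 with a median of 6.07. C1qc was at 6.74, 6.80, 7.16, 6.92 and 6.75, and between 6.83 and 7.07 with a median of 7.00. All 3 chains were highest in replicate 3 among the nontransgenic aortas, but not among the P467L aortas. Their differences were -0.04 ± 0.13, 0.05 ± 0.17 and 0.12 ± 0.08 (SE), each with a limma adjusted p of 0.999.

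Fc receptors bind the constant part of IgG and signal through the γ chain Fcer1g. Fcer1g was at 6.16, 6.27, 6.85, 6.38 and 6.09 in nontransgenic aortas and between 6.06 and 6.96 with a median of 6.39 in P467L, a difference of 0.08 ± 0.17 (SE). Fcgr1, the high-affinity receptor, was at 5.32, 5.50, 5.75, 5.39 and 5.41, and between 5.24 and 5.99 with a median of 5.48. Replicate 3 was the highest array of both genotypes for these genes. Fcgr1 differed by 0.01 ± 0.12 and Fcgr3, a low-affinity receptor, by 0.00 ± 0.11. Fcgr3 is close in sequence to other Fc receptor genes, and how far its probes tell them apart was not tested.

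Receptors of resident macrophages included the widest gap between an array and the next value of its group, though not the widest range. Cd163, the scavenger receptor for haemoglobin-haptoglobin complexes, was at 6.19, 6.24, 7.59, 6.37 and 6.25 in nontransgenic replicates 1 to 5. In P467L its lowest value was 6.17, its median 6.39 and its highest 7.31, the latter in replicate 3. Apart from the arrays numbered 3 no value exceeded 6.45, and the genotype difference was -0.05 ± 0.25 (SE). Cd163 is described in full because of these arrays, a choice made after its values were seen. Mrc1, the mannose receptor, was at 7.37, 7.59, 8.58, 8.04 and 7.84 and between 7.74 and 8.84 with a median of 8.15, again highest in replicate 3 of both genotypes. Its difference was 0.24 ± 0.22 (SE).

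Csf1r, the receptor for the growth factors CSF1 and IL-34 on which macrophages depend, varied little. It was at 6.34, 6.11, 6.44, 6.30 and 6.27 in nontransgenic aortas and between 6.23 and 6.46 with a median of 6.43 in P467L, a difference of 0.09 ± 0.07 (SE). Timd4, a phosphatidylserine receptor of resident macrophages, was at 5.91, 5.83, 5.76, 5.99 and 6.01, and between 5.28 and 6.03 with a median of 5.68 in P467L. Of the 7 P467L values 5 lay below the nontransgenic range and 1, in replicate 4, above it. Its difference was -0.25 ± 0.12 (SE; limma adjusted p = 0.999). Folr2, a folate receptor of resident macrophages, differed by 0.02 ± 0.12.

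Pattern recognition and scavenger receptors did not separate the genotypes. Cd14, the coreceptor for bacterial lipopolysaccharide, was at 5.93, 6.03, 6.54, 5.96 and 5.33 in nontransgenic aortas and between 5.68 and 6.55 with a median of 6.05 in P467L. It differed by 0.10 ± 0.18 (SE), and a further row, at 4.71 and 4.51 below background, by -0.20 ± 0.24. Marco, a scavenger receptor, was at 4.48, 4.59, 4.58, 4.49 and 4.41, and between 4.49 and 4.82 with a median of 4.58, all below background, a difference of 0.11 ± 0.07. Msr1, scavenger receptor A, had the largest SE of the members, with a difference of 0.10 ± 0.36 and P467L values from 5.20 to 7.33. Clec4n, the C-type lectin dectin-2, differed by 0.03 ± 0.19.

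Secreted products of macrophages were F13a1, the A subunit of coagulation factor XIII, and Pf4, a chemokine made by platelets and resident macrophages. F13a1 was at 7.39, 7.41, 8.08, 7.59 and 7.36 in nontransgenic aortas and between 7.41 and 8.11 with a median of 7.70 in P467L, a difference of 0.15 ± 0.14 (SE). Pf4 was at 7.29, 7.45, 8.44, 8.39 and 7.84, and between 7.44 and 8.34 with a median of 7.91, a difference of -0.02 ± 0.22. Each P467L range lay close to the nontransgenic one.

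Genes of leukocytes in general were 5 of 6 higher by mean in P467L, none past the threshold. Ptprc, the phosphatase CD45 that marks all leukocytes, was at 5.19, 4.96, 5.28, 5.31 and 5.32 in nontransgenic aortas and between 5.11 and 5.69 with a median of 5.24 in P467L. Laptm5, a lysosomal protein of blood cells, was at 6.23, 6.07, 6.47, 6.17 and 6.09, and between 6.02 and 6.57 with a median of 6.29. Cd52, a small surface glycoprotein, was at 5.17, 4.66, 5.17, 5.15 and 5.23, and between 5.04 and 5.55 with a median of 5.20. Each P467L range overlapped the nontransgenic one, with differences of 0.14 ± 0.11, 0.11 ± 0.11 and 0.15 ± 0.12 (SE). Cd84, an adhesion receptor, differed by 0.08 ± 0.11, Coro1a, an actin regulator, by 0.06 ± 0.08, and the tetraspanin Cd53 by -0.04 ± 0.15.

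**Figure D2:**
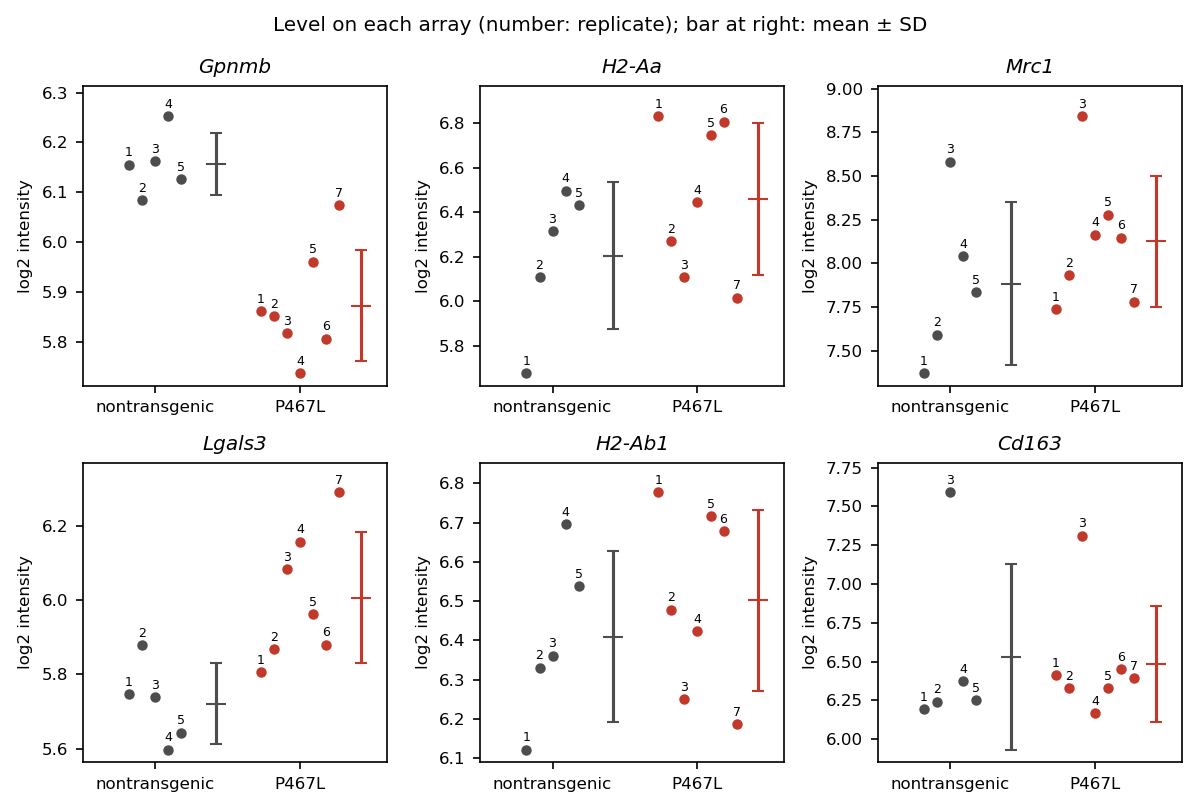
Log2 intensity (y axis) of Gpnmb, Lgals3, H2-Aa, H2-Ab1, Mrc1 and Cd163 on each array, 5 nontransgenic (grey) and 7 P467L (red), with the replicate number above each point and the group mean ± SD at its right. The Gpnmb groups do not overlap, and the arrays numbered 3 are highest in both genotypes for Mrc1 and Cd163.

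Many members had their highest or lowest values on the same arrays. Replicate 3 was the highest array of both groups in 8 members (24.2%), against 5.58% of the genes above background: Fcgr1, Fcer1g, Mrc1, Cd163, Cd14, Msr1, Cd68 and F13a1. Nontransgenic replicate 3 alone was highest in 17 members (51.5%, against 19.4% of genes above background), and nontransgenic replicate 1 was lowest in 16 (48.5%, against 21.1%). P467L replicate 7 was the lowest of its group in 15 members (45.5%), against 7.21% of genes above background. These arrays were picked out after their values were seen.

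Markers of fat were high or low on some of the same arrays. The median of 11 adipocyte markers, each taken relative to its own mean over all arrays, was 0.42 in nontransgenic replicate 3 and 0.19 in P467L replicate 3, the highest of each group, and -0.45 in P467L replicate 7, the lowest. Their mean level ranged from 6.65 to 7.12 in nontransgenic and from 6.30 to 7.06 in P467L aortas, and 10 of the 11 were above background in nontransgenic aorta. In nontransgenic replicate 1, where the members' median was the lowest of its group at -0.20, the adipocyte median was 0.06, above 3 of the other nontransgenic arrays. The median of 14 smooth muscle markers went the other way, -0.10 and -0.21 in the arrays numbered 3 and 0.21 in P467L replicate 7. That of 13 fibroblast markers was also highest in the arrays numbered 3, at 0.15 and 0.08, but was 0.03 in P467L replicate 7. Among P467L arrays the median of all members was highest in replicate 4, at 0.11, against 0.07 in replicate 3. The part of these in the members' values was not tested. Without both arrays numbered 3 the median of the members' differences was 0.12, and without P467L replicate 7 it was 0.11, again with 0 members past the threshold.

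**Figure D3:**
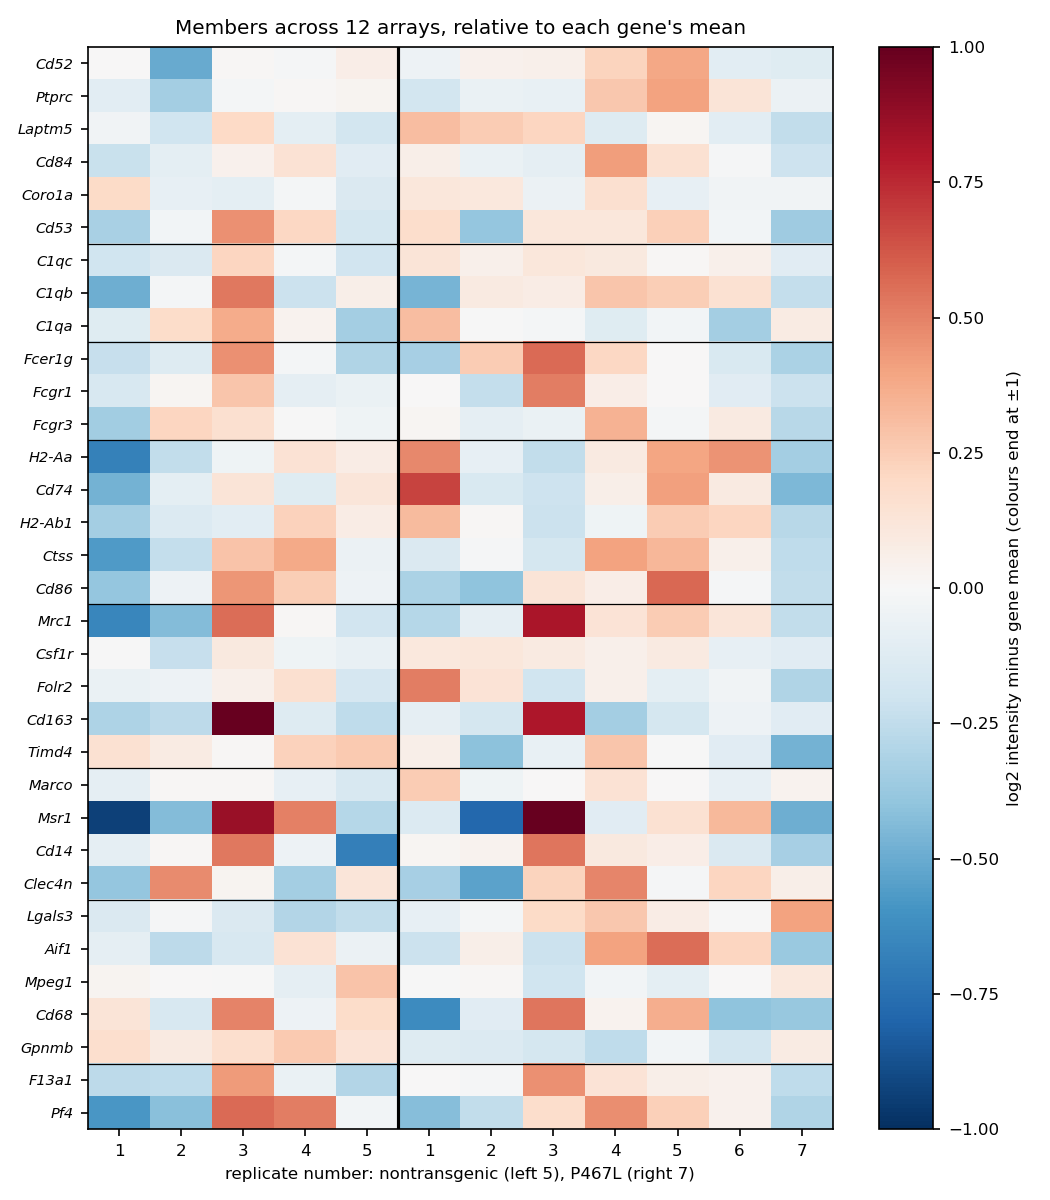
Log2 intensity of each of the 33 genes relative to its mean over 12 arrays (colour), with nontransgenic replicates 1 to 5 left of the line and P467L replicates 1 to 7 right of it, and genes grouped by role. Cd163, Msr1 and Mrc1 are highest in replicate 3 of both genotypes, and H2-Aa, H2-Ab1 and Cd74 are lowest in nontransgenic replicate 1 and high in P467L replicate 1.

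Class II members deviated together from their group means, but role did not mark off which members varied together. Over the 12 arrays the median Pearson correlation between pairs was 0.61 for the 5 class II pathway members. It was 0.52 for the 3 C1q chains and 0.37 for the 3 Fc receptor genes. Of the C1q pairs, C1qb with C1qc had 0.52 and C1qa with C1qc 0.53, but C1qa with C1qb had -0.03. C1qa exceeded background on 10 of the 12 arrays. The median was lower, 0.18, 0.25 and 0.20, within the leukocyte, resident receptor and pattern recognition groups. Some pairs across roles were as high, with 0.62 between the C1q chains and the secreted factors and 0.54 between the C1q chains and the Fc receptor genes. It was 0.31 over the 27 members above background, against 0.07 over all genes above background. It was -0.05 within the phagolysosomal and activation group, which holds Gpnmb and Lgals3. These values describe 12 arrays, whose shared tissue content and intensity enter every pair.

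Compared by equal replicate number, the members were higher in P467L in 4 of the 5 pairs. The labels give numbers 1 to 5 in both genotypes without saying what they mark. Of the 33 genes, 24, 21, 12, 22 and 29 were higher in the P467L array of pairs 1 to 5, while 38.7%, 45.2%, 37.2%, 43.8% and 62.2% of genes above background were. The members' median difference within a pair was 0.16, 0.09, -0.09, 0.12 and 0.26. Pair 3, whose arrays are those on which 8 members were highest, had the lower share and the negative median. The upper quartile of intensity was lower on the P467L array of every pair, by 0.05, 0.06, 0.08, 0.09 and 0.003 log2 units. In a fit with the replicate number as a block the members' median was 0.12. With the upper quartile added as a covariate it was 0.30, and 0 genes passed in either direction. The part of the upper quartile in the values of single pairs was not tested.

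Mrc1, Cd14 and F13a1 were higher in the P467L array of all 5 pairs, and Gpnmb was lower in all 5. That is 9.09% and 3.03% of the members, against 5.41% and 5.46% of all genes that were higher and lower in every pair. Mrc1 differed by 0.37, 0.34, 0.26, 0.12 and 0.44 within pairs 1 to 5, and F13a1 by 0.27, 0.24, 0.03, 0.20 and 0.35. Cd14 differed by 0.11, 0.02, 0.01, 0.15 and 0.75, so pair 5 gave most of it. Gpnmb differed by -0.29, -0.23, -0.35, -0.52 and -0.17.

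With the replicate number as a block in limma, 0 members passed an adjusted p under 0.05, while 30 genes (0.152%) did in all. At an unadjusted p under 0.05, 4 of the 33 (12.1%) differed, Mrc1, F13a1 and Lgals3 higher and Gpnmb lower, against 9.95% of all genes. The SE was smaller with the block in 23 of 33 members, against 76.6% of all genes, and larger in 10. It went from 0.22 to 0.07 for Mrc1 and from 0.25 to 0.09 for Cd163, but from 0.19 to 0.23 for Clec4n and from 0.18 to 0.20 for Cd74. The blocked differences were 0.31 ± 0.07 for Mrc1 (limma adjusted p = 0.228), 0.22 ± 0.07 for F13a1 (0.390), 0.25 ± 0.10 for Lgals3 (0.457) and -0.31 ± 0.07 for Gpnmb (0.239). Cd163 differed by -0.02 ± 0.09. The median of the members was 0.12 in this fit, with 26 of 33 higher, against 0.00 over all genes. The fit rests on the 5 pairs and leaves P467L replicates 6 and 7 without weight.

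**Figure D4:**
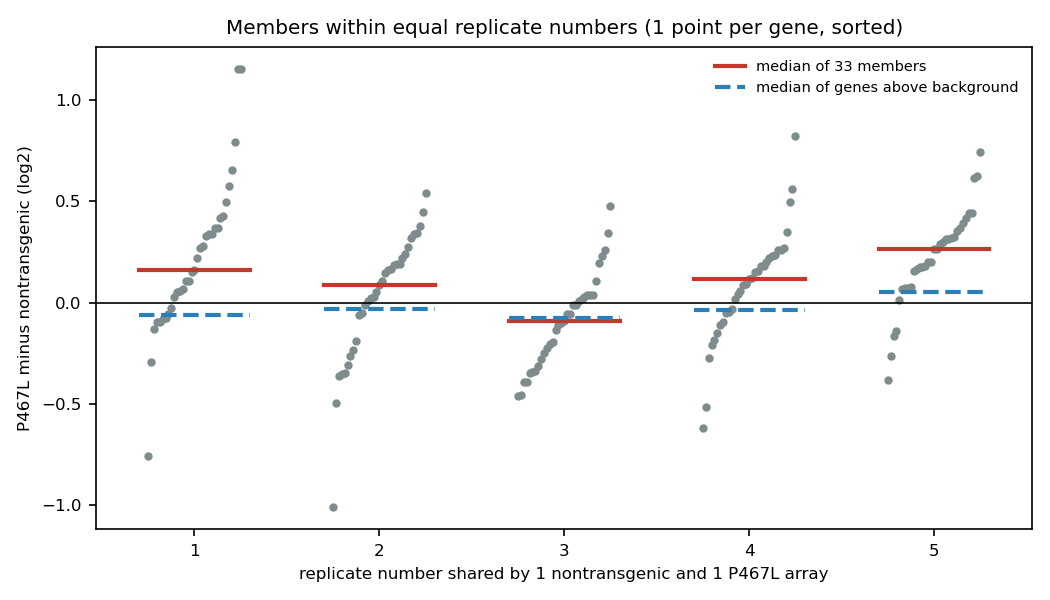
P467L minus nontransgenic difference on the log2 scale (y axis) of each of the 33 genes within each replicate number shared by 1 nontransgenic and 1 P467L array (x axis), 1 grey point per gene, sorted. The red lines are the members' medians, 0.16, 0.09, -0.09, 0.12 and 0.26, and the dashed blue lines those of genes above background.

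Other genes of the same pathways were compared from lists chosen with earlier results known. Of 12 other class II pathway genes 0 passed and the median difference was 0.01. The smallest p was that of Lgmn, the lysosomal protease legumain, at 0.17 ± 0.11 (SE). Of 11 class I genes 0 passed (median 0.02), with Psmb9, an immunoproteasome subunit, at 0.12 ± 0.10. Of 11 other complement genes 0 passed (median 0.03), with Cd55, an inhibitor of complement, at 0.30 ± 0.18. None of the 3 medians lay further than 0.03 from 0.

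Among 37 other macrophage genes 1 passed. Trem2, a lipid-sensing receptor of myeloid cells, rose by 1.04 ± 0.10 (SE; limma adjusted p = 0.000607), from a nontransgenic mean of 5.02, below background, to 6.06 in P467L. Of the 5 nontransgenic arrays 4 lay below background, so the size of the gene's own difference is not settled by this row. The median of the 37 was 0.01. Of 14 myeloid transcription and growth factors 0 passed (median 0.07), with Maf, a factor of resident macrophages, at 0.37 ± 0.15. Of 9 genes listed for monocytes Fn1, fibronectin, rose by 0.62 ± 0.10 (SE; limma adjusted p = 0.0189), and the list's median was 0.08. Its adjusted p was 0.0718, 0.0630 and 0.0560 without nontransgenic replicates 1, 3 and 5. Fn1 is also a matrix gene of smooth muscle and fibroblasts. Of 11 dendritic cell genes 0 passed (median 0.03), with Xcr1, a chemokine receptor, at -0.33 ± 0.15. Xcr1 lay below background on every array, with means of 4.23 in nontransgenic and 3.90 in P467L.

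Markers of other cells of the dissected vessel were read in the same fit. Of 13 fibroblast markers 1 passed, Mfap5, which encodes a microfibril component, with means of 8.70 and 8.06 and a difference of -0.65 ± 0.10 (SE). Its limma adjusted p was 0.0183, and 0.0888 with the replicate block, and the list's median was 0.01. No marker passed among 14 smooth muscle (median 0.00), 14 endothelial (0.06), 11 adipocyte (-0.09), 11 lymphocyte (0.08), 11 neutrophil (0.03), 7 mast cell (0.00), 13 skeletal muscle (0.28) and 3 erythroid genes (0.19). The adipocyte median turned to 0.02 with the replicate block. The smallest p of each belonged to Des (0.61 ± 0.11, limma adjusted p = 0.0510), Emcn (-0.88 ± 0.17, limma adjusted p = 0.0703), Slc2a4 (-0.18 ± 0.08), Cd79a (0.22 ± 0.11), Ltf (0.15 ± 0.08), Cpa3 (-0.14 ± 0.19), Myoz1 (0.27 ± 0.11) and Slc4a1 (0.19 ± 0.08). Ltf and Myoz1 lay below background on every array, and Cpa3 exceeded it on 4 arrays and Slc2a4 on 7. Skeletal muscle markers averaged 5.16 to 5.81 in nontransgenic and 5.20 to 7.95 in P467L aortas, the highest in P467L replicate 4. Without that array the median of the 33 members' differences was 0.03.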

How the data were processed

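The authors deposited log2 intensities of 12 exon arrays, 1 mouse each. RMA, the mm9 build and Affymetrix Power Tools are named in the submitters' processing notes. Versions, probe set class and filters were not given in the sources used here. Replicates are separate mice, per the labels. RMA draws differences of dim genes towards 0. Total RNA of about 50 ng was amplified per array, per the labels' protocols.

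Of 101175 rows, 22754 carried 1 gene symbol, 1522 several and 76899 none in the platform annotation. The brightest row of each of 19687 genes was used. By Entrez ID 22245 rows matched RefSeq GRCm38.p6 names, with 0 symbols changed. All 19687 genes were fitted with limma 3.58.1 (R 4.3.3; lmFit, eBayes, no covariate) and Benjamini-Hochberg adjusted. The fit was tested on simulated data drawn independently for each gene and array. Deviations shared by genes of an array were absent from them, so that test does not cover such deviations. Errors are SE for differences and SD for levels.

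Arrays of equal number deviated together from their group means (r between 0.227 and 0.398 over genes, all 5 pairs). For 3 of 5 nontransgenic arrays alone the own number was the best partner. Nontransgenic replicate 1 was closest to P467L replicate 2, and nontransgenic replicate 4 to P467L replicate 5. These correlations do not settle whether the numbers pair the arrays. The comparison by equal number and the replicate block are therefore given only as alternatives to the unpaired fit. Members and lists were chosen with earlier results of these data known. Nontransgenic values per array, with the lowest, median and highest P467L value, are given for some members. These are the member of each role with the highest mean and the 2 of each role with the smallest p. All C1q and class II members and Cd163 were added. Of other lists, genes past the threshold and the smallest p are named.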

Additional observations from a re-analysis of the deposited data

Results flagged for a closer look

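Of the 66 sets of values tested (33 genes in 2 genotypes), 4 had an array far from the others of its group by Dixon's test, where chance gives about 1 in 20. Cd163 was at 7.59 in nontransgenic replicate 3, where the next value was 6.37, and at 7.31 in P467L replicate 3, where the next was 6.45. Fcgr1 was at 5.99 in P467L replicate 3, where the next was 5.55. Cd52 was at 4.66 in nontransgenic replicate 2, where the next was 5.15. The cause was not tested in any of them.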

How the results depend on the processing

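No member passed an adjusted p under 0.05 in any of the 26 settings tried, nor under 0.1, and the lowest adjusted p was 0.114. The members' median, 0.08, stayed above 0 in all 24 settings that recompute it. It moved by more than the spread between single arrays (SD 0.15) only with the replicate block and the upper quartile of each array together (0.30). In that fit 0 genes passed in either direction. The spread between single arrays is a loose limit for a median of 0.08. In the other settings the median lay between 0.02 (array weights) and 0.13 (without nontransgenic replicate 3).

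The number of genes called higher, 23, and the number of genes called lower, 25, depended on the arrays. They were 14 and 16 with the replicate block, 6 and 2 without the 3 least correlated arrays (nontransgenic replicate 2, P467L replicates 1 and 2), and 11 and 11 without both arrays numbered 3, an alternative chosen after seeing the data. They were 7 and 8 with an unmoderated test and 6 and 3 when all rows were tested. The higher calls were 42 with quantile normalization and 71 with the upper quartile as a covariate. Leaving out 1 array gave 7 (without nontransgenic replicate 1) to 30 (without P467L replicate 3) higher and 4 (without nontransgenic replicate 1 or 4) to 18 lower calls. Trem2 lost its call in 1 of 26 settings (block with upper quartile, adjusted p = 0.757), Fn1 in 8 and Mfap5 in 7, among them for Mfap5 without nontransgenic replicates 1, 3 and 4 (0.0696, 0.0557 and 0.0618).

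Of 852 member values under alternatives 65, in 15 genes, changed sign. The differences of these 15 lay between -0.07 and 0.11 in the reported fit, so a median of 0.08 is of the same size. Cpa3 and Pparg, given with them here, are not members. With the block Cd53 was 0.024, C1qa 0.0035, Clec4n -0.014 and Pf4 0.029. With block and upper quartile Cd53 was 0.48, C1qa 0.42, Fcgr1 -0.0084, Cd86 0.56, Cd163 0.22, Clec4n -0.49, Pf4 0.36 and Cpa3 0.22. With the upper quartile alone Cd53 was 0.0034, Cd86 0.029, Folr2 -0.0069 and Pf4 0.097. Without both arrays numbered 3 Cd53 was 0.041, C1qa 0.046, Fcgr1 -0.0093, Cd86 0.0051, Cd163 0.082, Pf4 0.089 and Cpa3 0.050. Without the 3 least correlated arrays Laptm5 was -0.020, Cd86 0.041, Folr2 -0.11, Pf4 0.0057 and Pparg -0.047. With array weights Fcgr1 was -0.023, Folr2 -0.033, Msr1 -0.044 and Pparg -0.021, and with the mean over its rows Cd14 was -0.053. Leaving out 1 array gave ranges across 0 of -0.13 to 0.063 for Cd53, -0.13 to 0.045 for C1qa, -0.067 to 0.19 for C1qb, -0.079 to 0.075 for Fcgr1, -0.084 to 0.057 for Fcgr3, -0.013 to 0.20 for Fcer1g, -0.065 to 0.17 for Ctss, -0.18 to 0.032 for Cd86, -0.18 to 0.22 for Cd163, -0.059 to 0.076 for Folr2, -0.060 to 0.24 for Cd14, -0.057 to 0.16 for Clec4n, -0.12 to 0.33 for Msr1, -0.17 to 0.12 for Pf4, -0.23 to 0.072 for Cpa3 and -0.048 to 0.079 for Pparg. The cause was not tested.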
